A study of Mus musculus with 4 samples.

Results

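Natural killer (NK) nuclei made up 128 of the 36690 nuclei kept from 4 single-nucleus RNA libraries of mouse adipose tissue. A nucleus was counted as NK where at least 2 of the 5 genes Klrb1c, Ncr1, Klre1, Gzma and Eomes had a UMI, the molecular barcode that stands for 1 captured RNA molecule. It also had no UMI of the T cell genes Cd3e, Cd3g, Themis, Cd4 and Cd8b1, and UMIs of fewer than 2 of the B cell genes Bank1, Pax5, Cd79b and Ms4a1. A barcode was kept as a nucleus where it had at least 300 genes and where mitochondrial transcripts made up under 10% of its UMIs. The nuclei were thus chosen by their own RNA, so their levels of these genes describe the choice and are not a result.

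NK cells are lymphocytes without rearranged antigen receptors that kill infected, transformed or stressed cells with perforin and granzymes and secrete interferon gamma. Their activity is set by the balance of activating and inhibitory receptors, many of them C-type lectin-like proteins whose genes lie side by side in the NK gene complex; in mice these include the Ly49 receptors, encoded by the Klra genes. Fat tissue holds circulating-type NK cells and tissue-resident type 1 innate lymphoid cells (ILC1), which share Ncr1 and Klrb1c (NK1.1), and NK cells of visceral fat are known for promoting macrophage inflammation in obesity.

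The mice of all 4 groups were fed a high-fat diet. BAT surgery and BAT sham are the operated and sham-operated groups of tissue labelled brown adipose tissue, and BeAT surgery and BeAT sham are the same groups of tissue labelled beige adipose tissue. The series title names the operation as bariatric surgery. Strain, sex, age, the type of operation, the time since it and how many mice were used per library are details that the sources used here do not give. Each group is 1 library. The spread between animals is therefore unknown for every difference, and every 95% interval below covers counting error only.

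The libraries differed in ways that touch the NK nuclei. The brown label was not matched by Ucp1, the uncoupling protein gene of brown fat, which had 28 UMIs in BAT surgery and 3 UMIs in BAT sham. In BAT surgery, 56.4% of kept nuclei held at least 3 of 8 genes of epididymal epithelium (such as Gpx5 and Adam28), against 0.163% in BAT sham and none in the BeAT libraries. BeAT surgery was rich in lymphocytes, with T nuclei at 22.9% and B nuclei at 34.2% of kept nuclei, against 1.59% and 0.549% in BeAT sham. Median depth per kept nucleus was 5373 UMIs in BAT surgery, 4032.5 in BAT sham, 2777 in BeAT surgery and 3093 in BeAT sham. Library pairs shared 36 to 73 barcode sequences. Of the barcodes of NK nuclei, 1 was also seen in another library, and none was an NK nucleus in both.

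NK nuclei numbered 18 in BAT surgery, 52 in BAT sham, 17 in BeAT surgery and 41 in BeAT sham. Their share of kept nuclei was 0.181% (exact Clopper-Pearson interval 0.107 to 0.286) in BAT surgery, against 0.499% (0.373 to 0.654) in BAT sham. It was 0.286% (0.167 to 0.457) in BeAT surgery, against 0.395% (0.284 to 0.535) in BeAT sham. The intervals of the BAT pair did not overlap and those of the BeAT pair did. The ratio of surgery to sham was 0.363 in BAT and 0.724 in BeAT. With nuclei that held any of 8 further T cell genes left out, 7 and 13 nuclei remained in BAT surgery and BAT sham. The BAT intervals then overlapped (0.0283 to 0.145, against 0.0665 to 0.213), and the ratios were 0.564 in BAT and 0.459 in BeAT. Without nuclei that held other cell types' genes, the ratios were 0.233 in BAT and 1.01 in BeAT. Both shares move with the amount of epididymal epithelium and of T and B nuclei in the library, and the part of these in the ratios was not tested.

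Among NK, T and B nuclei together the order was different. NK nuclei were 9.33% of these in BAT surgery (18 of 193, interval 5.62 to 14.3), against 17.6% in BAT sham (52 of 295, 13.5 to 22.5). In BeAT surgery they were 0.498% (17 of 3413, 0.290 to 0.796), against 15.6% in BeAT sham (41 of 263, 11.4 to 20.5). The ratio of surgery to sham was 0.529 in BAT and 0.0320 in BeAT. The T share of kept nuclei in BeAT surgery was 14.4 times, and the B share 62.3 times, the BeAT sham share, so the denominator differed far more than the NK numerator. The sham libraries lay close together, with a ratio of 1.26 for BAT sham over BeAT sham in the share of kept nuclei.

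**Figure D1:**
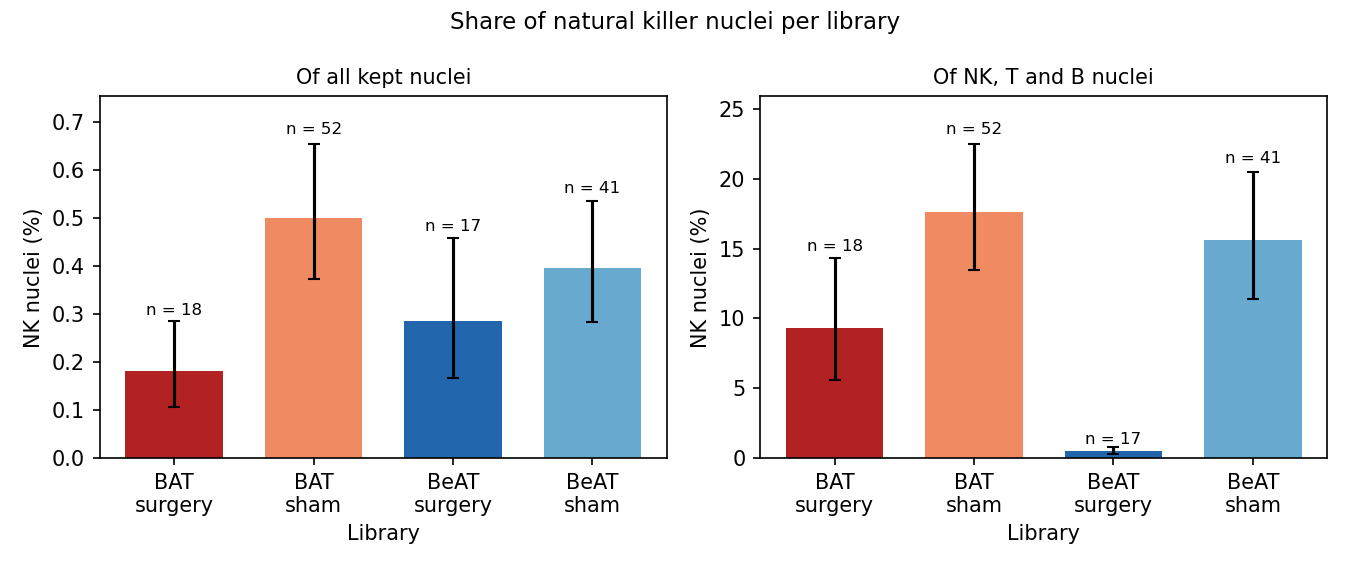
NK nuclei in each library as a percentage of all kept nuclei (left) and of NK, T and B nuclei (right), with exact 95% intervals and the number of NK nuclei. Of all kept nuclei the shares run from 0.181% to 0.499%; of lymphocyte nuclei BeAT surgery, at 0.498%, lies far below the other libraries.

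The median NK nucleus held 2283.5 UMIs in BAT surgery, 2037 in BAT sham, 2596 in BeAT surgery and 1737 in BeAT sham, close to the T nuclei of the same library (2182, 2063.5, 2898 and 1653). T nuclei here had at least 2 of Cd3e, Cd3g, Themis, Bcl11b and Trbc2, fewer than 2 of the 5 NK genes and fewer than 2 of the B cell genes; they numbered 1815. Summed over NK nuclei the libraries gave 62675, 133596, 49537 and 113722 UMIs in the same order of libraries. Levels below are CPM, the UMIs of a gene divided by those of all genes in the summed nuclei and scaled to a total of 1000000. A gene with 0 UMIs could still stand at up to 47.9 CPM in BAT surgery, 22.5 in BAT sham, 60.6 in BeAT surgery and 26.4 in BeAT sham, the level of 3 UMIs.

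Among the genes of the rule, Ncr1 and Klrb1c were found most often. Ncr1 encodes NKp46, an activating receptor that marks NK cells and ILC1. It was detected in 109 of the 128 nuclei, at 527 CPM in BAT surgery, 1011 in BAT sham, 828 in BeAT surgery and 871 in BeAT sham. T nuclei held 0, 1.87, 1.30 and 0 CPM of it. Klrb1c, the NK1.1 antigen, was detected in 105 nuclei, at 542, 719, 727 and 765 CPM in the same order. Klre1, an inhibitory or activating lectin-like receptor depending on its partner, stood at 351, 666, 222 and 501 CPM. Eomes, a T-box factor of mature NK cells, was sparse, in 1, 12, 3 and 6 nuclei.

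Promoter sequences of the 3 genes that mark the set are shown with the words bound by RUNX factors, which all 3 hold, and by T-box factors, which Ncr1 and Klre1 hold; these are the families of Runx3, Eomes and Tbx21 described further on. They run from 250 bases before to 50 bases after the start of the gene, from RefSeq on GRCm38.p6. Capitals mark TGTGGT (RUNX) or TCACAC (T-box) on either strand, where ACCACA and GTGTGA are the same words read from the opposite strand; no match overlapped another. Ncr1 lies at chr7:4337465-4337764 on the plus strand, Klre1 at chr6:129577963-129578262 on the plus strand and Klrb1c at chr6:128788592-128788891 on the minus strand.
Ncr1: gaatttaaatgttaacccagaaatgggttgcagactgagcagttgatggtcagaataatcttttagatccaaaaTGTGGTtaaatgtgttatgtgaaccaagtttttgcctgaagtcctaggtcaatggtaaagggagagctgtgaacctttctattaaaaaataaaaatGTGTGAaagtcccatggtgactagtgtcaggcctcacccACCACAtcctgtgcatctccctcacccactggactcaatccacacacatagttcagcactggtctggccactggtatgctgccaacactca
Klre1: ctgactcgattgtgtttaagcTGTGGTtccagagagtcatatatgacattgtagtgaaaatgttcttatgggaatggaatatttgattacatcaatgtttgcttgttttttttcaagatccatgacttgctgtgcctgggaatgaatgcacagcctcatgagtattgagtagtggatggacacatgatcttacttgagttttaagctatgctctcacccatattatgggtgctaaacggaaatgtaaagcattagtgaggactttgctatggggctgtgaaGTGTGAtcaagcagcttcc
Klrb1c: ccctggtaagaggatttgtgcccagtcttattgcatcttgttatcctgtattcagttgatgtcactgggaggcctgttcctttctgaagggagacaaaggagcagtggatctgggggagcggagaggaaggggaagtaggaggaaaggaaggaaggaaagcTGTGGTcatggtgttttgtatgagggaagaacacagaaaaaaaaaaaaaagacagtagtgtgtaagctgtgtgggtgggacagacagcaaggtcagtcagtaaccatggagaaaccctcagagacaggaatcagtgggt
The Ncr1 window holds 2 RUNX words and 1 T-box word, that of Klre1 1 of each, and that of Klrb1c 1 RUNX word. RefSeq gives Klre1 another start, and its window, at chr6:129578036-129578335, has no RUNX word and the same T-box word. Gzma has 1 RUNX word and Eomes neither, and the ETS word CCGGAA is in none of the 5 windows. Of 32851 promoters of this length, 16.8% hold the RUNX word, 14.5% the T-box word and 14.9% the ETS word. A match of letters is a description and not a binding site.

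Of the 128 nuclei, 55 held exactly 2 of the 5 genes, 42 held 3, 26 held 4 and 5 held all. Summed over nuclei just inside the limit, with 2 genes, the 25 other NK genes described next stood at 6230.3 CPM in BAT surgery, 8622 in BAT sham, 7558 in BeAT surgery and 5301 in BeAT sham, with a median of 8 or 9 of them detected. Nuclei just outside, with 1 gene, stood at 85.6, 1239, 3552 and 1128 CPM. In BAT surgery 2027 nuclei lay just outside and 2009 of them did so by Klrb1c alone, whereas the other libraries had 37, 35 and 55 such nuclei.

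NK genes that the rule did not use were high in these nuclei in every library. Summed over 25 such genes, NK nuclei held 6494 CPM in BAT surgery, 8533 in BAT sham, 8418 in BeAT surgery and 7114 in BeAT sham, against 1828, 2107, 1798 and 1889 CPM in T nuclei. NK and T nuclei were separated by the rule, so their comparison is a description and nothing is read from its counts. A gene was called higher or lower at 2-fold where both sums together held at least 20 UMIs. In BAT sham, 6.19% of 6416 genes were higher and 11.8% lower in NK than in T nuclei (397 and 755 genes, or 266 and 952 with median-of-ratios scaling in place of the total). In BeAT sham, 5.67% of 5631 genes were higher and 13.2% lower. The scaling moves every log2 ratio by -0.16 in BAT sham and -0.11 in BeAT sham. Of the 25 genes, 19 of 21 tested were higher in BAT sham, with a median log2 ratio of 2.62 beside 0.03 for all genes. In BeAT sham 18 of 20 were higher, with a median of 2.41 beside -0.06. The exceptions were Cd226 in both, Klrg1 in BAT sham and Tbx21 in BeAT sham.

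Klrk1 encodes NKG2D, the activating receptor for stress-induced ligands. It stood at 415 CPM in BAT surgery, 1362 in BAT sham, 1069.9 in BeAT surgery and 616 in BeAT sham, against 44.9, 181, 72.3 and 89.1 CPM in T nuclei. Klrd1 encodes CD94, the partner of the NKG2 receptors, and was more even, at 319, 419, 303 and 396 CPM. Its partners Klrc1, the inhibitory NKG2A, and Klrc2, the activating NKG2C, stood at 351, 277, 323 and 211 CPM and at 351, 367, 888 and 299 CPM. BeAT surgery thus had the highest Klrc2, and no library had the highest level of all these receptors.

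Several genes with less familiar roles were also far higher in NK nuclei. Styk1 (NOK), a kinase-like membrane protein, stood at 287 CPM in BAT surgery, 546 in BAT sham, 161 in BeAT surgery and 325 in BeAT sham, and was 24.4-fold higher than in T nuclei in BAT sham and 33.8-fold higher in BeAT sham. Cd244a (2B4), a SLAM-family receptor, stood at 479, 404, 384 and 193 CPM, and was 16.7-fold higher in BAT sham and 26.8-fold higher in BeAT sham (8.05 to 139.8, from 3 T UMIs; intervals of such ratios are exact binomial). Adamts14, a procollagen protease, stood at 128, 254, 262 and 211 CPM and was 13.6-fold and 21.9-fold higher. Cd226 (DNAM-1), an adhesion receptor that T cells also use, stood at 1005, 898, 1049.7 and 536 CPM, beside 963, 782, 628 and 539 CPM in T nuclei.

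**Figure D2:**
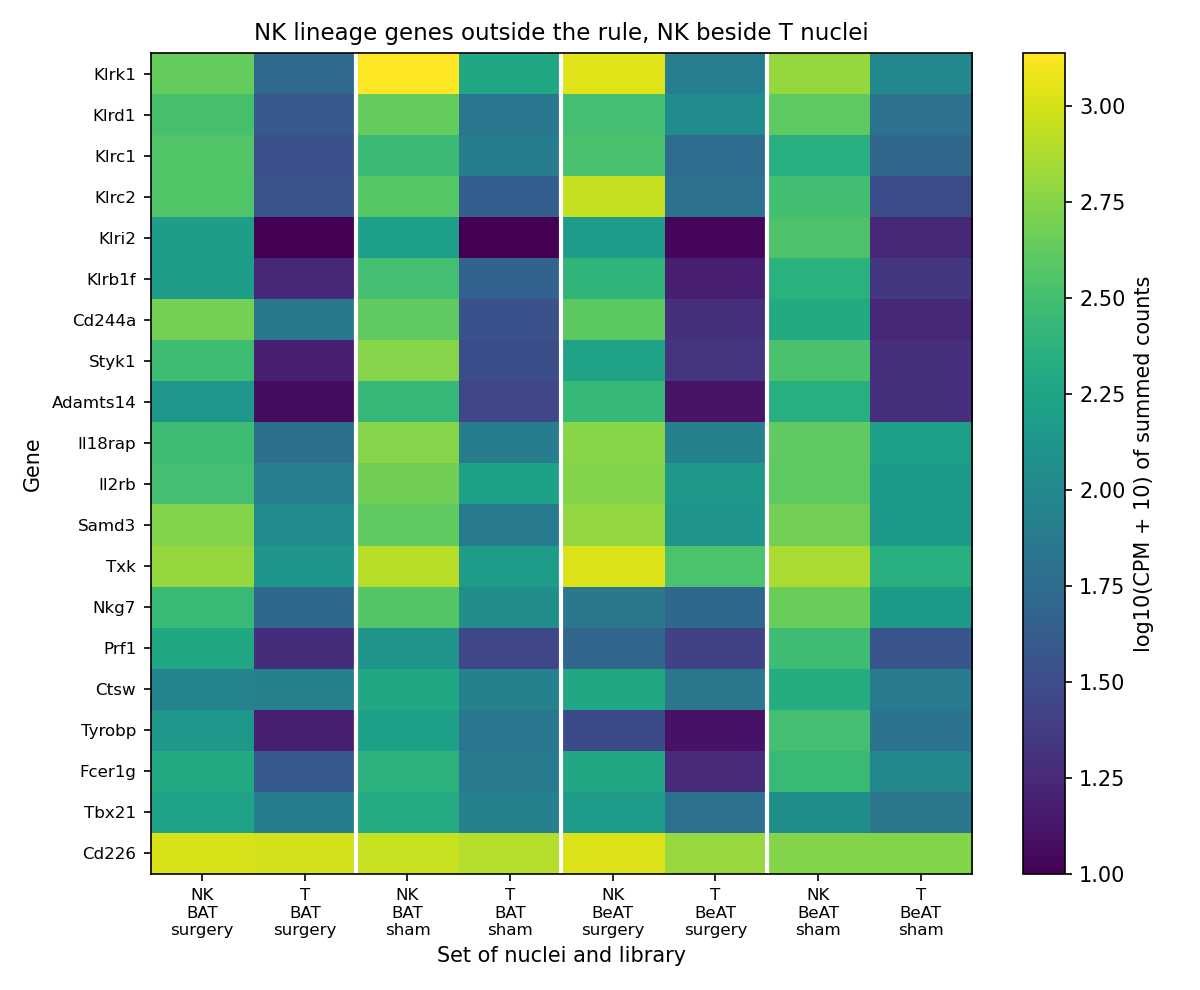
Levels of 20 NK lineage genes outside the rule as log10(CPM + 10) of summed UMIs, for NK nuclei (left of each pair) and T nuclei of the 4 libraries. Klrk1 reaches 1362 CPM in NK nuclei of BAT sham, whereas Cd226 is about as bright in T as in NK nuclei.

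The Klra genes encode the Ly49 receptors, most of them inhibitory receptors for MHC class I, with Klra4 (Ly49D) and Klra8 (Ly49H, the receptor for a cytomegalovirus protein) among the activating ones. Ly49 genes are near-identical in parts, so UMIs may have been split or shifted between members, and single values are uncertain. Summed Klra UMIs gave 1707 CPM in BAT surgery, 3997 in BAT sham, 2301 in BeAT surgery and 2682 in BeAT sham, against 41.3, 181, 105 and 178 CPM in T nuclei. All 6 Klra genes tested were higher in NK than in T nuclei in both sham libraries, with a median log2 ratio of 4.01 in BAT sham and 3.9 in BeAT sham. These and the other medians of lists given here are the same with members at 0 UMIs in 1 sum set to their bound.

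NK nuclei differed in how many Ly49 genes they held. At least 1 Klra gene was detected in 12 of 18 nuclei of BAT surgery (66.7%), 46 of 52 of BAT sham (88.5%), 7 of 17 of BeAT surgery (41.2%) and 31 of 41 of BeAT sham (75.6%). In T nuclei the shares were 5.43%, 10.6%, 9.85% and 10.9%. With nuclei thinned to 1000 UMIs, the same depth for each, the NK shares were 58.8%, 85.1%, 40.0% and 74.4%, so the order of libraries was the same. Over all libraries 32 nuclei had no Klra gene, 19 had 1, 27 had 2, 22 had 3 and 28 had 4 or more.

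Klra7 (Ly49G), an inhibitory receptor, stood at 159.6 CPM (exact Poisson interval 76.5 to 293) in BAT surgery, against 1025 (861 to 1212) in BAT sham. It stood at 464 CPM (294 to 697) in BeAT surgery, against 712 (566 to 885) in BeAT sham. Klra9 (Ly49I) followed with 255, 891, 141 and 343 CPM in the order of the 4 libraries. Klra1 (Ly49A) was lower throughout, at 79.8, 322, 121 and 158 CPM, and BAT sham was highest for all of these. Klra8 was more even, at 686, 1093, 1009 and 659.5 CPM, but in BeAT surgery 41 of its 50 UMIs came from 1 nucleus. Likewise 21 of the 25 Klra4 UMIs in BeAT surgery came from 1 nucleus. Klra2 had no UMI in any NK nucleus.

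**Figure D3:**
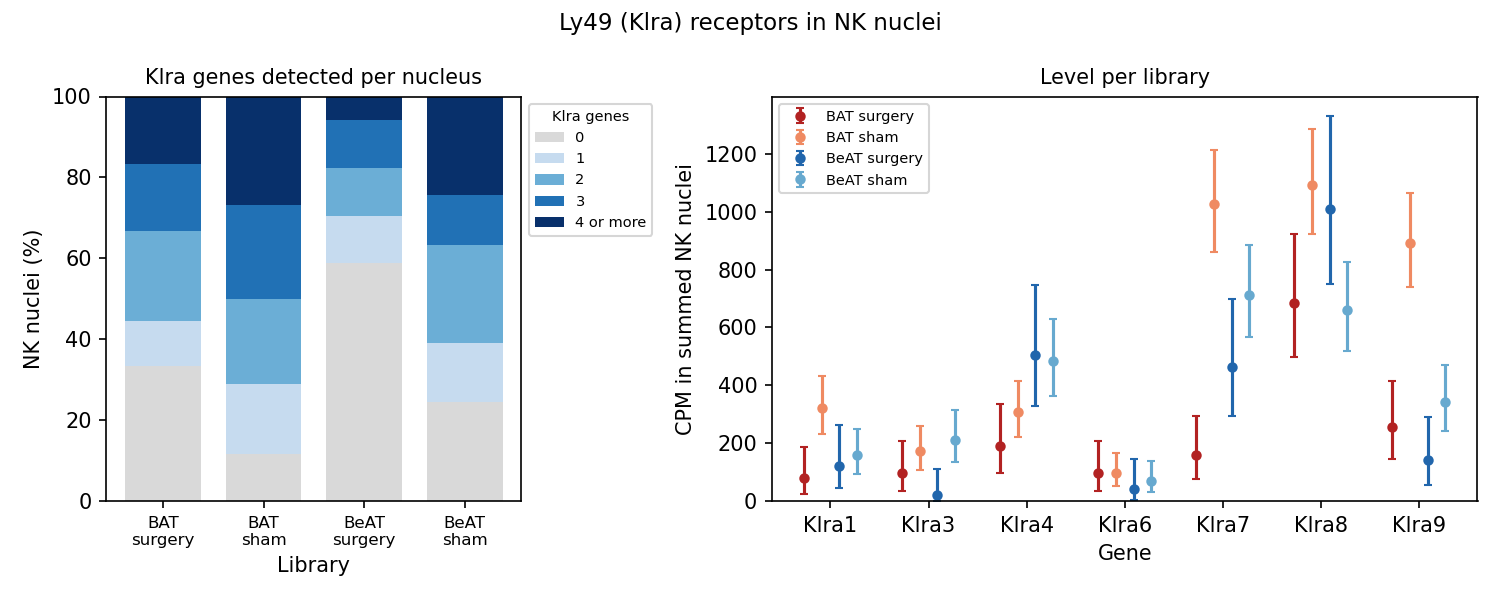
Left, percentage of NK nuclei of each library by the number of Klra genes detected; right, CPM of 7 Klra genes with exact Poisson 95% intervals. BeAT surgery has no Klra gene in 10 of 17 nuclei, and Klra7 is at 159.6 CPM in BAT surgery, against 1025 CPM in BAT sham.

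These receptors sit in the NK gene complex. Between the outermost Klr genes of the complex, at chr6:128609227-131247362 in GENCODE M21 (GRCm38), the table held 51 genes, 24 of them Klr genes. Of 77 genes higher in NK than in T nuclei in both sham libraries, 14 (18.2%) lay in this span, which held 0.367% of the 4909 genes tested in both. Klra8 had no UMI in T nuclei of either sham library and was higher in NK nuclei by at least 195-fold in BAT sham and 91.3-fold in BeAT sham, counting from 3 UMIs. In BAT sham Klra4 was at least 54.8-fold higher, and it had 55 NK UMIs and 1 T UMI in BeAT sham, a ratio of 201 (34.6 to 8079). Klri2, a lectin-like receptor that pairs with Klre1, was higher by at least 26.7-fold in BAT sham and by 46.3-fold (14.7 to 234) in BeAT sham. Klrb1c and Klre1 of the rule are 2 of the 14. The T nuclei were limited to fewer than 2 rule genes, and the comparison describes the chosen sets.

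Signalling genes below the receptors split between NK and T nuclei. Of 23 adaptors and kinases tested in BAT sham, 6 were higher and 2 lower, beside 6.19% and 11.8% of all genes. In BeAT sham 4 of 21 were higher and 3 lower, beside 5.67% and 13.2% of all genes. Fcer1g, the gamma chain that pairs with NKp46, stood at 191 CPM in BAT surgery, 225 in BAT sham, 182 in BeAT surgery and 273 in BeAT sham. Tyrobp (DAP12), the adaptor of the activating Ly49 receptors, stood at 128, 149.7, 20.2 and 308 CPM, with 1 UMI in BeAT surgery. Against the 24 CD8 T nuclei of BAT sham alone, the log2 ratios of Fcer1g and Tyrobp were -0.42 and -0.68. Txk, a TEC-family kinase, stood at 622, 793, 1049.7 and 721 CPM and was 5.75-fold higher than in T nuclei in BAT sham and 3.44-fold in BeAT sham. Syk was 4.72-fold and 3.96-fold higher. Cd247, the zeta chain of the T cell receptor complex, was lower than in T nuclei in both, at ratios of 0.441 and 0.461.

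The killing machinery was present but shallow. Of the cytotoxic granule genes, 6 of 11 tested were higher in NK than in T nuclei in BAT sham and 6 of 12 in BeAT sham. None was lower, and of all genes 6.19% and 5.67% were higher in these libraries. Prf1, which encodes perforin, stood at 176 CPM in BAT surgery, 119.8 in BAT sham, 40.4 in BeAT surgery and 290.2 in BeAT sham, in 6, 12, 2 and 17 nuclei. Gzmb, granzyme B, had 3, 18, 0 and 29 UMIs. Nkg7, a granule membrane protein, stood at 271, 359, 60.6 and 448 CPM. For Prf1 and Nkg7, BeAT surgery was lowest and BeAT sham highest; Gzmb was also highest in BeAT sham, and its 0 UMIs in BeAT surgery cannot be ranked against the 3 UMIs in BAT surgery. Ifng had 3 UMIs in BAT sham and none in the other libraries.

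Gzma, granzyme A, belongs to the rule, and its spread over libraries is given as a description. It was detected in 10 of 18 nuclei of BAT surgery (55.6%), 12 of 52 of BAT sham (23.1%), 2 of 17 of BeAT surgery (11.8%) and 22 of 41 of BeAT sham (53.7%). The levels were 670.1 CPM (483 to 906), 479 (369 to 612), 101 (32.8 to 236) and 1117 (931 to 1329). Single nuclei gave 16 of 42, 22 of 64, 4 of 5 and 57 of 127 of these UMIs, and the one in BAT surgery also held at least 4 epididymal genes. In adipocyte nuclei, which should lack the gene, 0.221%, 0.12%, 0% and 0.177% held a UMI.

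Cytokine receptors of NK cells were among the genes above T nuclei. Il2rb, the chain shared by the IL-2 and IL-15 receptors, stood at 303 CPM in BAT surgery, 464 in BAT sham, 545 in BeAT surgery and 396 in BeAT sham, 2.96-fold and 2.94-fold above T nuclei in the BAT sham and BeAT sham libraries. Il18rap, the IL-18 receptor accessory chain, stood at 287, 554, 565 and 404 CPM and was 7.81-fold and 2.67-fold higher. Il12rb2 was 5.79-fold and 3.09-fold higher. Of the whole list, 3 of 22 tested were higher and 5 lower in BAT sham, beside 6.19% and 11.8% of all genes. In BeAT sham 4 of 20 were higher and 4 lower, beside 5.67% and 13.2% of all genes.

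Chemokine and adhesion genes showed the same mixture. In BAT sham 7 of 14 tested were higher and 2 lower than in T nuclei, beside 6.19% and 11.8% of all genes. In BeAT sham 5 of 12 were higher and 3 lower, beside 5.67% and 13.2% of all genes. Ccl5, a chemokine of cytotoxic lymphocytes, stood at 367 CPM in BAT surgery, 681 in BAT sham, 384 in BeAT surgery and 1064 in BeAT sham. Its log2 ratio over the CD8 T nuclei of BAT sham was -0.07, and that of the protease gene Ctsw -0.33. Ccl4 had no UMI in BAT surgery and stood at 142, 20.2 and 132 CPM in BAT sham, BeAT surgery and BeAT sham. Itga2 (CD49b), the integrin used to mark conventional NK cells, was even over libraries, at 271, 344, 384 and 369 CPM, and 6.15-fold and 7.67-fold above T nuclei in the sham libraries. Itgax (CD11c) was 22.7-fold higher (6.57 to 121) in BAT sham and 87.7-fold higher (14.3 to 3606) in BeAT sham, from 3 T UMIs and 1 T UMI.

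Of the transcription factors, 2 of 20 tested were higher and 3 lower than in T nuclei in each sham library. These counts stand near the shares of all genes, 6.19% higher and 11.8% lower in BAT sham and 5.67% and 13.2% in BeAT sham. Tbx21 (T-bet), a T-box factor of NK cells and ILC1, stood at 159.6 CPM in BAT surgery, 195 in BAT sham, 141 in BeAT surgery and 106 in BeAT sham, and was 2.61-fold above T nuclei in BAT sham and 1.75-fold in BeAT sham. Lef1, a T cell factor, was lower than in T nuclei, at ratios of 0.43 and 0.389 in BAT sham and BeAT sham.

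T cell genes outside the rule were mostly low but not absent. Of 14 tested in each sham library, 9 were lower than in T nuclei in BAT sham and 12 in BeAT sham. None was higher, and of all genes 11.8% and 13.2% were lower in these libraries. Yet 84 of the 128 NK nuclei (65.6%) held a UMI of at least 1 of Cd3d, Cd8a, Trac, Trbc1, Trbc2, Trdc, Bcl11b and Cd5, and 30 (23.4%) of at least 2. Trbc1, a constant segment of the T cell receptor beta chain, was the most frequent, in 39 nuclei (30.5%). Its shares were 22.2% in BAT surgery, 32.7% in BAT sham, 47.1% in BeAT surgery and 24.4% in BeAT sham, beside 23.3%, 26.9%, 33.1% and 23.0% of T nuclei. Trac, the alpha chain constant segment, was in 7 nuclei (5.47%), and Cd6 had no UMI in any NK nucleus. T cells without a captured UMI of the excluded genes would also meet the rule, and their part in the set was not tested.

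Reads of other cell types also fell into NK nuclei. Macrophage genes summed to 144 CPM in BAT surgery, 247 in BAT sham, 242 in BeAT surgery and 123 in BeAT sham, and at least 2 of 8 were found in 2, 3, 2 and 2 nuclei. At least 3 of 8 adipocyte genes were found in 2, 13, 0 and 14 nuclei. The summed adipocyte genes stood at 957, 3743, 1069.9 and 2981 CPM in NK nuclei, beside 845, 3714, 1681 and 3035 CPM in T nuclei of the same library. Epididymal genes stood at 5903, 0, 0 and 8.79 CPM in NK nuclei, beside 8261, 20.5, 22.2 and 14.4 CPM in T nuclei. In the sham libraries the intervals of NK and T nuclei overlapped for both lists. In BAT surgery, epididymal genes were lower in NK nuclei (5317 to 6537) than in T nuclei (8024 to 8503), and in BeAT surgery adipocyte genes were (801 to 1399, against 1643 to 1719). Ptprc (CD45), the gene all leukocytes share, was detected in 16, 49, 16 and 36 NK nuclei.

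Outside the lists, Clnk ranked below only the haemoglobin genes Hbb-bs and Hba-a1 among the genes higher in NK than in T nuclei of both sham libraries, with a mean log2 ratio of 2.75. Clnk, an immunoreceptor adaptor, stood at 606 CPM in BAT surgery, 584 in BAT sham, 1413 in BeAT surgery and 334 in BeAT sham, against 129, 125, 58.2 and 33.7 CPM in T nuclei. Aoah, a lipase that inactivates bacterial lipopolysaccharide, stood at 558, 561, 505 and 466 CPM, against 18.0, 155, 21.7 and 72.2 CPM in T nuclei. Klf12, Cers6, Dok2, Ugcg and Gsap followed, with mean log2 ratios over the sham libraries of 2.3, 2.07, 1.86, 1.84 and 1.72. Hbb-bs, Hba-a1 and Hba-a2 had 3.15, 3.01 and 2.61, but 40 of 53 Hbb-bs UMIs in BAT sham and 582 of 828 in BeAT sham came from 1 nucleus.

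Genes lower in NK nuclei included Dpp4 (CD26), a T cell surface protease, with 16.0 CPM in BAT surgery, 0 in BAT sham, 0 in BeAT surgery and 8.79 in BeAT sham, against 232, 87.7, 309.9 and 118 CPM in T nuclei. Slamf1, a lymphocyte adhesion receptor, had 1 NK UMI and 52 T UMIs in BAT sham and 0 and 32 in BeAT sham. The potassium channel gene Kcnn4, Fam169b and Cd163l1, a scavenger receptor of gamma delta T cells, had no NK UMI in the sham libraries. In BAT sham they were at least 2.83-fold, 3.74-fold and 8.56-fold lower, counting from 3 UMIs, and in BeAT sham at least 3.65-fold, 7.85-fold and 1.92-fold lower. Nkain2 had no NK UMI in the sham libraries either. Macrophage genes made up others of this group, namely C1qb, Lgmn, Wfdc17 and Ccl8. The chemokine gene Ccl8 was at least 6.23-fold lower in BAT sham and at least 11.5-fold lower in BeAT sham.

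Surgery and sham libraries could be set side by side only at a minimum of 15 NK nuclei, a limit chosen after the numbers were seen, since the surgery libraries held 17 and 18. For BeAT, 29.6% of 1914 genes were higher and 23.2% lower in surgery than in sham NK nuclei, with a median log2 ratio of 0.49 over all genes. These were 567 and 445 genes; with median-of-ratios scaling, which moves every log2 ratio by -0.78, they were 154 and 634. Against that background, 8 of 13 transcription factors were higher and 1 lower, with a median of 1.23, but 2 were higher and 2 lower with that scaling. Of 17 adaptors and kinases 8 were higher and 1 lower, with a median of 0.84, against 3 and 2 with that scaling. Both lists were also higher in T nuclei of BeAT surgery. Summed transcription factors stood there at 10362 CPM, against 6116 CPM in BeAT sham, beside 9709.9 and 5197 CPM in NK nuclei. Summed adaptors and kinases stood at 12537 against 7449.5 CPM in T nuclei, beside 11910.3 and 6384 CPM in NK nuclei. Of the cytotoxic granule genes 1 of 9 was higher and 5 were lower, with a median of -1.72, and with that scaling 1 was higher and 6 were lower. Of the 25 NK lineage genes outside the rule, 1 of 19 tested was higher and 5 were lower, with a median of 0.34, near that of all genes; with that scaling 7 were lower and none higher.

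Il7r, the IL-7 receptor that ILC1 and other innate lymphoid cells keep and most conventional NK cells lack, had the highest BeAT log2 ratio, 4.18, of the ILC1-like genes with at least 20 UMIs. It stood at 1029.5 CPM (767 to 1354) in BeAT surgery, against 52.8 (19.4 to 115) in BeAT sham, and at 63.8 CPM (17.4 to 163) in BAT surgery, against no UMI in BAT sham. It was detected in 11 of 17 nuclei of BeAT surgery (64.7%), against 3 of 41 of BeAT sham (7.32%), and in 2 of 18 of BAT surgery, against 0 of 52 of BAT sham. Thinned to 1000 UMIs the shares were 60.0% in BeAT surgery, against 5.13% in BeAT sham. Free RNA sets a floor under these shares. Adipocyte nuclei, which should lack the gene, held a UMI in 6.88% in BeAT surgery, against 0.546% in BeAT sham, and the NK shares lay above both. T nuclei stood at 581 CPM in BeAT surgery, against 399.6 CPM in BeAT sham.

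Kit, a growth factor receptor of innate lymphoid cells and mast cells, was detected in 8 of 17 nuclei of BeAT surgery, against 1 of 41 of BeAT sham, at 283 CPM against 8.79 CPM. The other 7 of 8 mast and neutrophil genes had no UMI in NK nuclei of BeAT surgery. Ikzf2 (Helios) stood at 2402 CPM (1990.1 to 2875) in BeAT surgery, against 369 (266 to 499) in BeAT sham, with 31 of the 119 UMIs from 1 nucleus. It is also found in adipocyte nuclei, in 56.6% in BeAT surgery, against 29.0% in BeAT sham, so its share of NK nuclei, 64.7% and 26.8% in that order, stands near that level at full depth. Thinned to 1000 UMIs, it was 46.7% in NK nuclei and 13.9% in adipocyte nuclei of BeAT surgery.

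Inpp4b, a phosphatase high in ILC1, stood at 1958 CPM in BeAT surgery, against 149 CPM in BeAT sham, but 49 of its 97 UMIs came from 1 nucleus. Cd200r1, with 18 UMIs in 4 of 17 nuclei of BeAT surgery, against 1 UMI in BeAT sham, had a ratio of 41.3 (6.52 to 1722) but lay under the minimum of UMIs. Itga1 (CD49a), the integrin that marks tissue-resident NK cells and ILC1, did not follow. It stood at 161 CPM in BeAT surgery, against 246 CPM in BeAT sham. Of the ILC1-like genes tested, 3 of 6 were higher in BeAT surgery and none lower, with a median log2 ratio of 1.84, beside the 29.6% of all genes that were higher. With median-of-ratios scaling 3 were higher and 2 lower, and Itga1 was one of the lower ones at a log2 ratio of -1.33. T nuclei held these genes as well. Their sum stood at 6328 CPM in T nuclei of BeAT surgery, against 3750 CPM in BeAT sham, beside 7328 and 1636 CPM in NK nuclei. Against T nuclei, none of 13 tested was higher and 8 were lower in BeAT sham, beside 5.67% and 13.2% of all genes. In BAT sham 2 of 15 were higher and 5 lower, beside 6.19% and 11.8%.

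Within BeAT surgery, Ikzf2 and Klrb1b were in a larger part of the nuclei with Il7r than of those without, and Kit was not. These are counts only, and nothing was tested. Of the 11 nuclei with Il7r, 9 held Ikzf2, 7 held Klrb1b, 5 held Kit and 3 held a Klra gene. Of the 6 without Il7r, 2 held Ikzf2, 2 held Klrb1b, 3 held Kit and 4 held a Klra gene. Of the 16 nuclei with Il7r over all libraries, 11 were from BeAT surgery, which had the smallest share with a Klra gene (41.2%). A Klra gene was found in 5 of these 16 nuclei and in 91 of 112 without Il7r. Prf1 and Klra genes went the opposite way, with a Klra gene in 34 of 37 nuclei with Prf1 and in 62 of 91 without. Kit was in 12 nuclei, 8 of them in BeAT surgery, where Prf1 was in 2 of 17. No nucleus held both Kit and Prf1, and whether this is fewer than their rarity gives was not tested. Of genes that other innate lymphoid cells or helper T cells use, Il5, Il13, Areg, Il22, Il23r and Cxcr5 had no UMI in any NK nucleus.

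**Figure D4:**
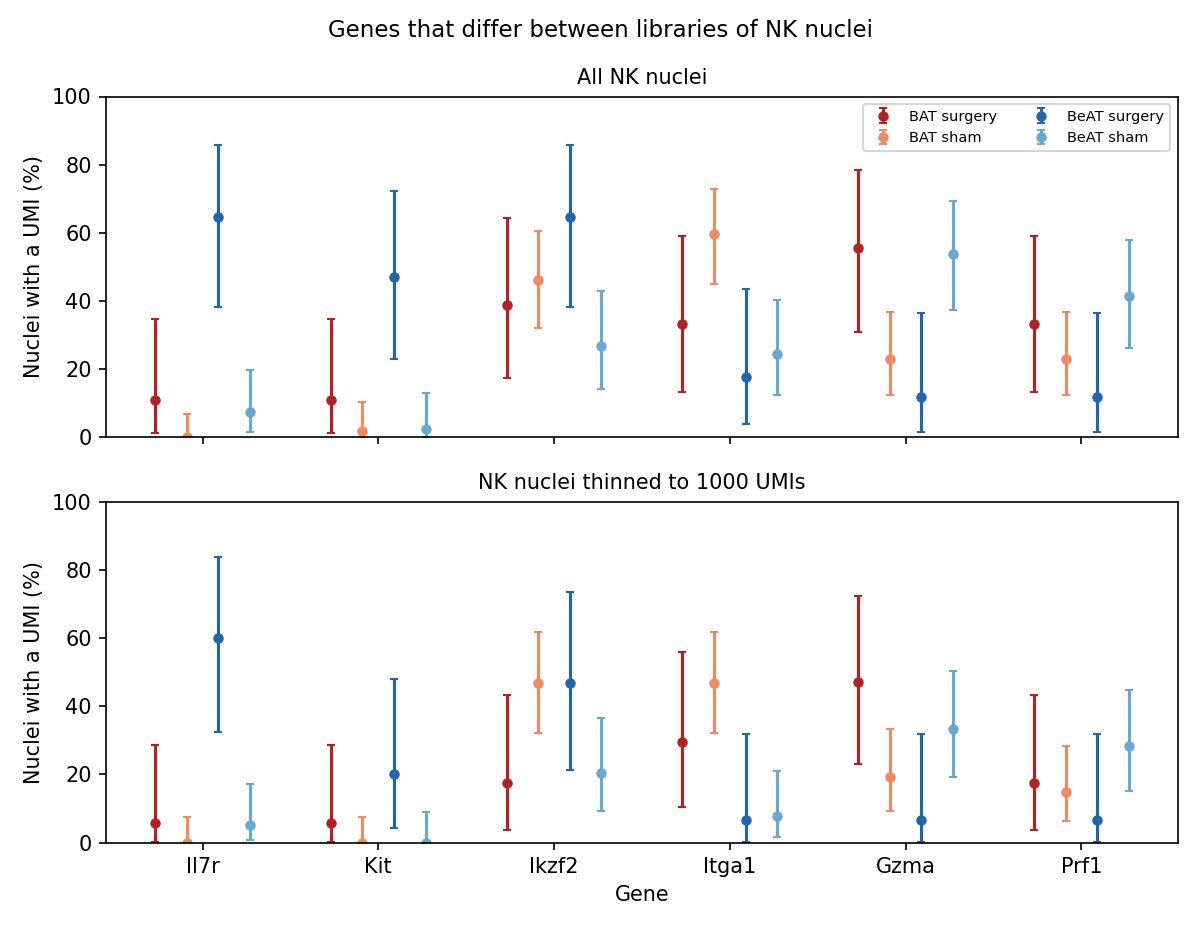
Percentage of NK nuclei with a UMI of 6 genes in each library, with exact 95% intervals, for all NK nuclei (top) and for nuclei thinned to 1000 UMIs (bottom). Il7r is in 64.7% of NK nuclei of BeAT surgery, against 7.32% in BeAT sham, and in 60.0% against 5.13% after thinning. Gzma, a gene of the rule shown as a description, is in 11.8% against 53.7%.

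Other differences of the BeAT pair ran through signalling genes. Runx3, a factor of cytotoxic lymphocyte identity, stood at 707 CPM (492 to 983) in BeAT surgery, against 70.3 (30.4 to 139) in BeAT sham; in T nuclei it stood at 387 CPM in BeAT surgery, against 116 CPM in BeAT sham. Stat4, which transmits IL-12 signals, stood at 1716 CPM in BeAT surgery, against 729.8 CPM in BeAT sham; its log2 ratio of 1.23 was 0.45 with the scaling above and 0.28 without the NK nuclei that held other cell types' genes. Bach2, Aff3 and Tox were higher by ratios of 2.5, 3.41 and 2.69, but with that scaling their log2 ratios were 0.54, 0.98 and 0.64, under 2-fold. In T nuclei Bach2 stood at 1349 CPM in BeAT surgery, against 329.8 CPM in BeAT sham, and Aff3 at 1480 CPM against 467 CPM, so the difference was also present in T nuclei. Among kinases and adaptors, Plcg2, Vav1, Ptpn22 and Vav3 were 4.88-fold, 3.73-fold, 3.65-fold and 2.98-fold higher, with 20 of the 48 Vav3 UMIs in 1 nucleus; with that scaling the log2 ratio of Vav3 was 0.79. Without the NK nuclei that held other cell types' genes, the log2 ratio of Vav1 was -0.02.

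Most granule genes past the 2-fold limit, and the adaptor gene Tyrobp, were lower in BeAT surgery than in BeAT sham. Summed over the list, granule genes were lower in T nuclei too, at 594 CPM in BeAT surgery, against 1143 CPM in BeAT sham. In NK nuclei the sums were 1514 CPM and 2259.9 CPM in that order, so the difference was not particular to NK nuclei. Nkg7 had 3 UMIs in BeAT surgery and 51 in BeAT sham, a ratio of CPM of 0.135 (0.0270 to 0.418). Prf1 had 2 and 33 UMIs, a ratio of 0.139 (0.0162 to 0.544), and Tyrobp 1 and 35, a ratio of 0.0656 (0.00162 to 0.390). Each of these intervals stays below 1. Gzma is a gene of the rule, so its values here are a description of the chosen nuclei. Its ratio was 0.0904 (0.0289 to 0.217), and a single nucleus held many of its UMIs in BeAT sham. Gzmb had no UMI in BeAT surgery, against 255 CPM in BeAT sham, at least 4.21-fold lower. After thinning, Prf1 was in 6.67% of NK nuclei in BeAT surgery, against 28.2% in BeAT sham, and Gzma in 6.67% against 33.3%, a level at which 1 nucleus of 15 holds a UMI in BeAT surgery. Klra9 had a ratio of 0.412. Of 6 Klra genes tested, 2 were lower, with a median of -0.45, beside 23.2% of all 1914 genes. With median-of-ratios scaling 4 of 6 were lower, beside 634 of the 1914 genes.

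By size alone, the genes outside the lists that led the BeAT comparison were Ttn, at least 16.8-fold higher, and Dscam and St6galnac3, with log2 ratios of 5.38 and 4.66. Ttn had 16 of 22 UMIs and St6galnac3 118 of 236 in 1 nucleus, whereas Dscam, a cell adhesion gene, was spread over 10 of 17 nuclei, at 1999 CPM in BeAT surgery, against 44.0 CPM in BeAT sham. Tasp1, with 3 UMIs in BeAT sham (interval of the ratio 3.76 to 69.3), Ccnd3, Ipcef1, Arhgef18, Slc9a7 and Ern1 followed, between 3.52 and 3.02. Ccnd3 (cyclin D3) stood at 2725 CPM in BeAT surgery, against 308 CPM in BeAT sham, beside 2229.5 CPM and 534 CPM in T nuclei of the same libraries.

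The 10 genes lowest in BeAT surgery included genes of adipocytes and red cells, the respiratory chain genes Cox4i1 and Cox8a, the interferon-induced gene Ifi27l2a and Slit3, a guidance ligand. Fabp4 stood at 60.6 CPM in BeAT surgery, against 24586 CPM in BeAT sham, where 1400 of 2796 UMIs came from 1 nucleus. Car3, Cav1 and Nnat belong to the same group, and Fabp4 stood at 437 CPM in T nuclei of BeAT surgery, against 11481 CPM in those of BeAT sham. Hba-a2 had no UMI in BeAT surgery and was at least 55.3-fold lower, and Hba-a1 had 2 UMIs, a ratio of 0.00749 (0.000905 to 0.0272). These RNAs take counts from the sum over NK nuclei of BeAT sham and move with the positive median of all genes given above; their part in the ratios was not tested.

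For BAT, 11.1% of 2434 genes were higher and 16.3% lower in surgery than in sham NK nuclei, with a median log2 ratio of -0.05. These were 270 and 396 genes, or 208 and 495 with median-of-ratios scaling, which moves every log2 ratio by -0.19. Receptor genes were lower more than higher. Of 6 Klra genes 3 were lower and none higher, with a median of -1.26, and of 8 other activating and inhibitory receptors 6 were lower and none higher, with a median of -1.09. These were Cd2, Cd7, Cd48, Cd84, Slamf7 and Itgal, surface proteins of lymphocytes, at ratios of 0.188 (0.0370 to 0.598), 0.337 (0.0638 to 1.14), 0.365, 0.411, 0.474 and 0.499. Cd2 and Cd7 had 3 UMIs each in BAT surgery. Klra7 had a ratio of 0.156, Klra1 of 0.248 and Klra9 of 0.287. Klrk1 stood at 415 CPM (271 to 608) in BAT surgery, against 1362 (1172 to 1575) in BAT sham. Of 20 NK lineage genes tested, 3 were lower, near the 16.3% of all genes, and none higher, with a median of -0.29. With median-of-ratios scaling 6 were lower.

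ILC1-like genes were lower in BAT surgery in 5 of 8 tested, and none was higher, with a median of -1.11. Of all genes, 16.3% were lower and 11.1% higher. Itga1 was in 6 of 18 nuclei of BAT surgery, against 31 of 52 of BAT sham, at 255 CPM (146 to 415) against 569 (448 to 712). Thinned to 1000 UMIs the log2 ratio of Itga1 was 0.04. Adipocyte nuclei held an Itga1 UMI in 26.4% in BAT surgery, against 53.2% in BAT sham, close to the NK shares of 33.3% and 59.6%. Those adipocyte nuclei were deeper, with medians of 7131 and 5554 UMIs, against 2283.5 and 2037 UMIs in NK nuclei. How much of the NK share is background was not tested. Thinned, Itga1 was in 29.4% of NK nuclei of BAT surgery, against 46.8% in BAT sham, above the 6.64% and 19.1% of adipocyte nuclei in that order. Xcl1 stood at 31.9 CPM in BAT surgery, against 254 CPM in BAT sham, where 20 of 34 UMIs came from 1 nucleus.

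Ly6c2 was the gene of lymphocytes among those lowest in BAT surgery, with no UMI against 54 UMIs in 24 of 52 nuclei of BAT sham, at least 8.44-fold lower. It encodes a surface antigen of mature NK cells, T cells and monocytes. The others lowest were adipocyte genes, among them Nnat, Prkar2b, Pck1, Npr3 and Adrb3, which had no UMI in BAT surgery and were at least 46.4-fold, 13.8-fold, 10.9-fold, 8.60-fold and 7.19-fold lower. The highest were Zfp804b and epididymal genes such as Adam7, Lcn8, Lcn9, Spag11b and Defb48. Zfp804b had 212 of its 294 UMIs in 1 nucleus. All 3 epididymal genes tested were higher and 6 of 7 adipocyte genes lower, beside 11.1% of all genes higher and 16.3% lower.

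Between the sham libraries, 13.3% of 2941 genes were higher and 11.3% lower in NK nuclei of BAT sham than of BeAT sham, with a median log2 ratio of 0.25. These were 390 and 331 genes, or 290 and 378 with median-of-ratios scaling, a shift of -0.12. Of 7 Klra genes 2 were higher and none lower, with a median of 0.52; these were Klra9 at a ratio of 2.6 and Klra1 at 2.03. Klrk1 was 2.21-fold and Cd244a 2.09-fold higher. With median-of-ratios scaling the log2 ratios of Klra1 and Cd244a were 0.89 and 0.93, under 2-fold. ILC1-like genes were higher in 4 of 8, with a median of 1.07, including Itga1 at 569 CPM in BAT sham, against 246 CPM in BeAT sham. Cytotoxic granule genes were lower in 3 of 11 and higher in none, with a median of -0.41, including Prf1 at a ratio of 0.413. Of 20 NK lineage genes outside the rule, 2 were higher and 3 lower.

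Dse, Fign and Bicd1, each without a UMI in BeAT sham, led the genes higher in BAT sham, at least 6.81-fold, 5.67-fold and 5.67-fold, followed by Nebl, Tasp1 and Ly6c2. Ly6c2 stood at 404 CPM in BAT sham, against 52.8 CPM in BeAT sham. The lowest were the haemoglobin genes, Hba-a1 at a log2 ratio of -4.77 and Hbb-bs at -4.19, then Mt1 at a ratio of 0.0567 (0.00657 to 0.224) and Nrp2 at 0.0896 (0.0101 to 0.371), each with 2 UMIs in BAT sham. In BeAT sham 482 of 613 Hba-a1 UMIs came from 1 nucleus.

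A marker of NK cells was also found far outside them. In BAT surgery, Klrb1c had a UMI in 2073 of the 9924 kept nuclei outside the NK set (20.9%), against 30 of 10364 in BAT sham (0.289%). BeAT surgery had 1.18%, against 0.261% in BeAT sham. The carriers in BAT surgery were epididymal, with Klrb1c in 34.1% (32.9 to 35.4) of 5599 nuclei with at least 3 epididymal genes, against 1.79% of nuclei with fewer than 2. Its neighbour Klrb1a was in 29.5% (28.3 to 30.7) of these nuclei, whereas Klrb1b was in 0.0536%, Ncr1 in 0.0893%, Klre1 in 0.125% and Gzma in 0.214%. The 3 Klrb1 genes are paralogs, and GENCODE M21 annotates a readthrough gene across Klrb1c and Klrb1b, so the assignment of these UMIs is uncertain.

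Epididymal nuclei with a Klrb1c UMI differed in other genes from those without. With the 4 NK nuclei among them included, the 1916 with a UMI had Adam28 at 4973 CPM, Gria2 at 726 CPM and Lipc at 2369 CPM, against 402, 57.9 and 220.5 CPM in the 3687 without. Ptprc stood at 28.1 CPM with Klrb1c, against 48.0 CPM without. Of the 18 NK nuclei of BAT surgery, 10 held at least 2 epididymal genes and 4 held at least 4, and 2 of those 4 had no Ptprc UMI. Without these 4 the share of NK nuclei in BAT surgery was 0.141%, against 0.499% in BAT sham.

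**Figure D5:**
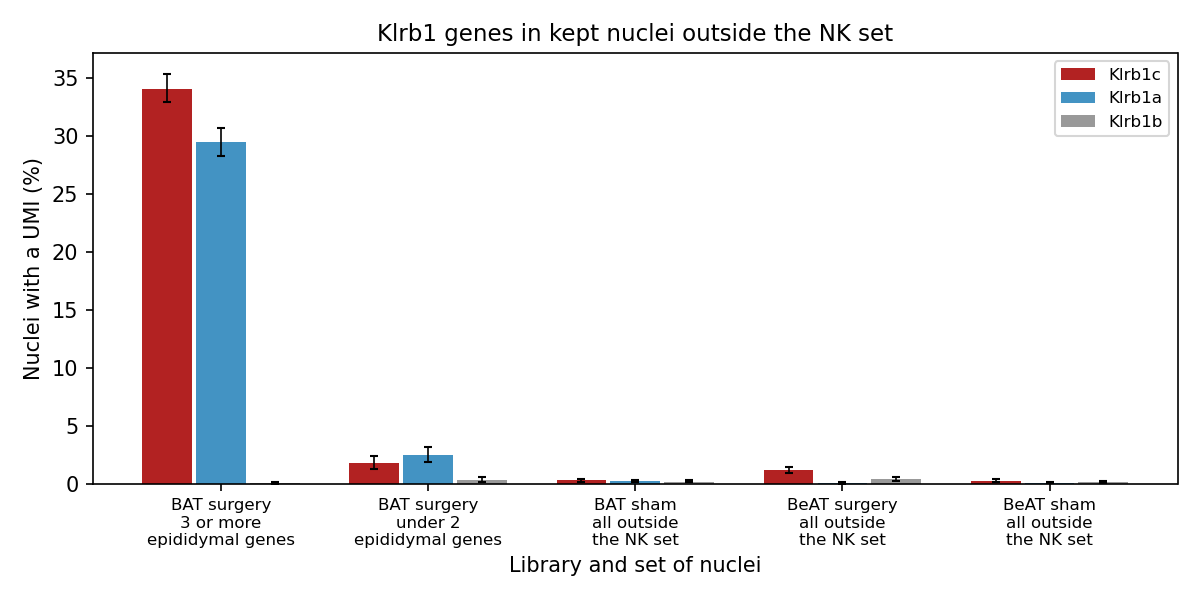
Percentage of kept nuclei outside the NK set with a UMI of Klrb1c, Klrb1a and Klrb1b, with exact 95% intervals, for 2 sets of BAT surgery and all such nuclei of the other libraries. Klrb1c is in 34.1% and Klrb1a in 29.5% of BAT surgery nuclei with at least 3 epididymal genes, against 0.289% and 0.212% in BAT sham.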

How the data were processed

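Nuclear RNA of 4 libraries was counted, 1 for each of BAT surgery, BAT sham, BeAT surgery and BeAT sham, grouped by the labels for tissue and treatment. Per the labels' protocols, tissue was minced, digested with enzymes and filtered, and viable cells were brought to concentration for a SeekGene library, although the molecule is labelled nuclear RNA. Per the submitters' processing notes, the build was mm10 and Seurat 4.4.0 and 4 were used; aligner and counter: not given in the sources used here. UMI counts deposited by the authors covered 32285 genes by barcode, not normalized, with 9946, 10445, 5952 and 10417 barcodes and 60409801, 47525684, 23118695 and 35675477 UMIs in the order of libraries above.

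The filters removed 4, 29, 3 and 34 barcodes. UMIs were summed over the NK or T nuclei of a library and divided by the total of all genes. Ratios of these values (counts scaled to CPM) are called at 2-fold with at least 20 UMIs in both sums and at least 20 nuclei in each; printed log2 ratios have 0.5 UMI added to both sums. With 1 library per group no test was run and no p is given. Intervals are exact Poisson for levels, Clopper-Pearson for shares and exact conditional binomial for ratios with 3 UMIs or fewer in 1 sum, at 95%. Adipocyte nuclei had at least 4 of 8 adipocyte genes. Doublets were kept, as the rule says. Scrublet, with an expected 6%, marked 3 of 18, 13 of 52, 1 of 17 and 4 of 41 NK nuclei. Of all kept nuclei it marked 7.88%, 6.00%, 10.4% and 6.00% in the same order. The surgery libraries used its automatic threshold and the sham libraries the top 6% by score, so the counts are not on the same basis. The step that makes the fold calls was run on simulated counts of BAT sham NK and T size, with planted changes larger than 2-fold. Those counts were drawn independently, so the run does not cover 2-fold changes, the surgery sums or UMIs clumped in single nuclei.

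The rule, the gene lists and the T set were chosen with earlier results of these data known. Named genes were list members with at least 10 UMIs or none, and outside the lists the 10 highest and 10 lowest ratios. For NK against T these needed 50 UMIs and 2-fold in both sham libraries, and predicted genes were skipped. Ucp1, Ptprc, Ifng, Trac, Gria2 and Lipc were named after their values had been seen. Some genes that met these rules are not reported here. Gene positions are of GENCODE M21 (GRCm38), which held 32158 of the identifiers. Promoters are RefSeq sequences on GRCm38.p6. Alternatives changed the filters, the rule, doublets, nuclei with other cell types, the UMI minimum, scaling, depth and the T set. Python 3.11.15, numpy 2.4.6, scipy 1.17.1, pandas 2.3.3, scanpy 1.11.5 and matplotlib 3.10.9 were used.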

Additional observations from a re-analysis of the deposited data

Results flagged for a closer look

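In 6 genes the NK nuclei of surgery lay below sham by about 2-fold or more in BAT and above it in BeAT. The difference between the tissues was not tested, since each group is 1 library. Slamf7, a receptor of the SLAM family, had a log2 ratio of surgery over sham of -0.95 in BAT and 1.09 in BeAT. Itgal, the alpha chain of the integrin LFA-1, had -0.95 in BAT and 1.14 in BeAT. Vav3, a guanine exchange factor below activating receptors, had -1.15 and 1.57, with 20 of its 48 UMIs in BeAT surgery in 1 nucleus. For Ikzf2 the ratios were -1.09 in BAT and 2.69 in BeAT, and for Trbc1 -1.57 and 1.45. Pde3b, a phosphodiesterase also high in adipocytes, had -1.29 in BAT and 1.32 in BeAT. The surgery sums rest on 18 nuclei in BAT and 17 in BeAT, and the median log2 ratio of all genes was -0.05 in BAT and 0.49 in BeAT. With median-of-ratios scaling, Ikzf2 alone of the 6 stayed past 2-fold in BeAT (1.91), and Slamf7, Itgal, Vav3, Trbc1 and Pde3b stood at 0.30, 0.36, 0.79, 0.67 and 0.54.

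Outside the NK set, Klrb1c was in 34.1% and Klrb1a in 29.5% of BAT surgery nuclei with at least 3 epididymal genes, above the 0.289% and 0.212% of kept nuclei outside the NK set in BAT sham. Klrb1c with the other 4 genes of the rule chose 4 NK nuclei that also held at least 4 epididymal genes. Whether these UMIs belong to Klrb1c and Klrb1a or to another transcript was not tested. The readthrough gene annotated here spans Klrb1c and Klrb1b, and Klrb1b was in 0.0536% of the BAT surgery nuclei with at least 3 epididymal genes.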

How the results depend on the processing

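Every comparison of genes sets 1 library or set of nuclei against 1 other, so counting depth and single nuclei limit each value. With 17 and 18 NK nuclei, the surgery libraries are the least precise. No paired analysis was possible because each group has 1 library. The rule without Klrb1c, the rule without nuclei with at least 4 epididymal genes, and all ratios of surgery over sham were chosen after seeing the data. At 20 nuclei or more no surgery comparison could be had. At 15 neither pair had one with 3 rule genes, with the wider T exclusion or with Klrb1c out of the rule. The BAT pair also had none without other cell types or without epididymal members. CD8 T nuclei numbered 24 in BAT sham and 28 in BeAT sham.

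Of 64 alternative shares, 40 stayed within the counting interval and 24 did not. The share of kept nuclei was 0.181% in BAT surgery, 0.499% in BAT sham, 0.286% in BeAT surgery and 0.395% in BeAT sham. With no UMI of 8 further T cell genes either, the shares in this order were 0.0704%, 0.125%, 0.0840% and 0.183%, and among NK, T and B nuclei 3.85%, 5.08%, 0.147% and 7.88%. With at least 3 rule genes, BAT sham had 0.298% and 11.3%, BeAT surgery 0.118% and 0.206%, and BeAT sham 0.231% and 9.76%. Without nuclei that held other cell types' genes, BAT surgery had 0.0805% and 4.37%, BAT sham 0.346% and 12.9%, and BeAT sham 0.250% and 10.5%. Without Klrb1c in the rule, BAT sham had 0.355% and 13.2%, and BeAT surgery 0.134% and 0.235%.

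Genes past 2-fold numbered 1152 (NK against T, BAT sham), 1064 (NK against T, BeAT sham), 666 (BAT surgery over sham), 1012 (BeAT surgery over sham) and 721 (BAT sham over BeAT sham). In this order they were 334, 323, 163, 332 and 230 at a minimum of 50 UMIs, 8087, 7552, 8357, 8770 and 7034 with no minimum, and 437, 498, 126, 228 and 191 after thinning. Without nuclei that held other cell types' genes they were 2324, 1979, 400 and 278, with no value for the BAT pair. Without doublets the BAT pair had 330, and against CD8 T nuclei 541 genes passed in BAT sham and 387 in BeAT sham. What caused these changes was not tested; a minimum of UMIs changes how many genes are tested.

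For 202 gene ratios past 2-fold, 2136 alternatives were run; 1707 kept the call, 415 fell under it and 14 changed sign. In BAT sham, log2 ratios of NK over T changed sign for Il15ra without doublets (0.23) and, against CD8 T nuclei, for Tyrobp (-0.68), Fcer1g (-0.42), Ctsw (-0.33) and Ccl5 (-0.07). In BeAT sham Cd200r1 did after thinning (0.02). For BAT sham over BeAT sham, Lamp1 changed to 0.13 and Runx3 to -0.04 without other cell types, and Runx3 to -0.27 after thinning. For the BAT pair, thinning gave 0.04 for Itga1, 0.19 for Ifnar1 and 0.33 for Itgax. For the BeAT pair, leaving out other cell types gave -0.38 for Klrc3 and -0.02 for Vav1. Leaving out each library in turn, 55.3% to 59.5% of NK nuclei held at least 3 rule genes and 65.8% to 80.2% a Klra gene, beside 57.0% and 75.0% over all.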
